A study of Homo sapiens with 2 samples.

Results

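The genes for 10 transcription factors that drive epithelial-mesenchymal transition (EMT), other than ZEB1, were followed through the open chromatin of SUM159 breast cancer cells. They were ZEB2, SNAI1, SNAI2, SNAI3, TWIST1, TWIST2, PRRX1, FOXC2, TCF3 and TCF4, 10 of 19970 protein-coding genes with a main transcript start on chromosomes 1 to 22 and X. The genes were listed by name and no measured value entered the rule, but the list was chosen with earlier results of these data known. A peak was assigned to a gene when it overlapped the gene body or lay within 50 kb of any transcript start in GENCODE. By this rule the genes held 73 of the 67868 peaks of the control library (No gRNA) and 69 of the 68238 peaks of the library with ZEB1 guides (All gRNA).

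EMT transcription factors are DNA-binding proteins that repress epithelial genes such as CDH1, which encodes the adhesion protein E-cadherin, and switch on a mesenchymal programme of migration and matrix production. The ZEB and SNAI proteins are zinc finger factors that bind E-boxes, short DNA elements of the type CAGGTG. TWIST proteins are basic helix-loop-helix factors that pair with the E proteins made by TCF3 and TCF4, while PRRX1 is a homeobox factor and FOXC2 a forkhead factor. Several of these genes regulate one another, and claudin-low triple negative lines such as SUM159 are known for a mesenchymal state.

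Both libraries came from SUM159, an established human triple negative breast cancer line, after transduction with the pLV-KRAB vector. This lentivirus expresses dCas9-KRAB, a cleavage-dead Cas9 joined to the KRAB repressor domain, together with a puromycin resistance gene. The No gRNA cells carried the vector with no targeting guide, and the All gRNA cells carried it with 4 guides to the ZEB1 promoter, so dCas9-KRAB was common to both groups. Open chromatin was mapped by ATAC-seq, in which the transposase Tn5 cuts accessible DNA. Each group had 1 library, so a test of the condition could not be made, p-values are absent, and every difference is one between these libraries. The cells of each group were a puromycin-selected population after transduction.

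The All gRNA library was the shallower, at 0.743 times the depth of No gRNA, with a median summit pileup of 14 against 19 and a median peak width of 317 bp against 342 bp. At the main start of ZEB1, the targeted gene, 2 peaks were called in No gRNA, the higher with a summit pileup of 27, and 0 in All gRNA. The mesenchymal genes VIM and CDH2 had a peak at the main start in both libraries, with highest pileups of 102 and 62 for VIM and of 58 and 37 for CDH2. No peak was called at the starts of the epithelial genes CDH1 and EPCAM in either library.

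The height of a peak is given as its summit pileup, the whole number of extended read ends stacked at the summit. A ratio is that of All gRNA to No gRNA after scaling for depth, with a 95% interval that covers counting error only, since reads of 1 library say nothing of the spread between cultures. A ratio was counted as higher when it was above 2, or as lower when it was below 0.5, and its interval excluded 1. A peak that shared at least 1 bp with the opposite list is called shared, and any other peak is called one-library. The strongest peak of a gene is the one with the highest −log10 q in the list. Distances are measured from the main transcript start to the peak summit in the No gRNA library where it has the peak, negative values lie upstream, and coordinates are on hg38.

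All 10 genes had a peak within 1 kb of the main start in both libraries, as did 60.3% of the 19970 protein-coding genes. Of the 73 No gRNA peaks, 17 had no counterpart in All gRNA (23.3%, against 24.7% of all No gRNA peaks). Of the 69 All gRNA peaks, 12 had no counterpart in No gRNA (17.4%, against 23.8% of all All gRNA peaks). The member peaks covered 27.1 kb in No gRNA and 23.2 kb in All gRNA, where the whole lists covered 27.7 Mb and 25.6 Mb. Peaks were fewer in All gRNA at ZEB2, TWIST2, FOXC2 and TCF3, more at TWIST1, and equal in number at SNAI1, SNAI2, SNAI3, PRRX1 and TCF4. At TCF3 and TWIST1 every peak had a counterpart. The counts differed there because 2 main start peaks formed 1 in All gRNA at TCF3, and 1 became 2 at TWIST1. At SNAI2 a main start peak split in the same way, beside 1 No gRNA only peak.

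**Figure D1:**
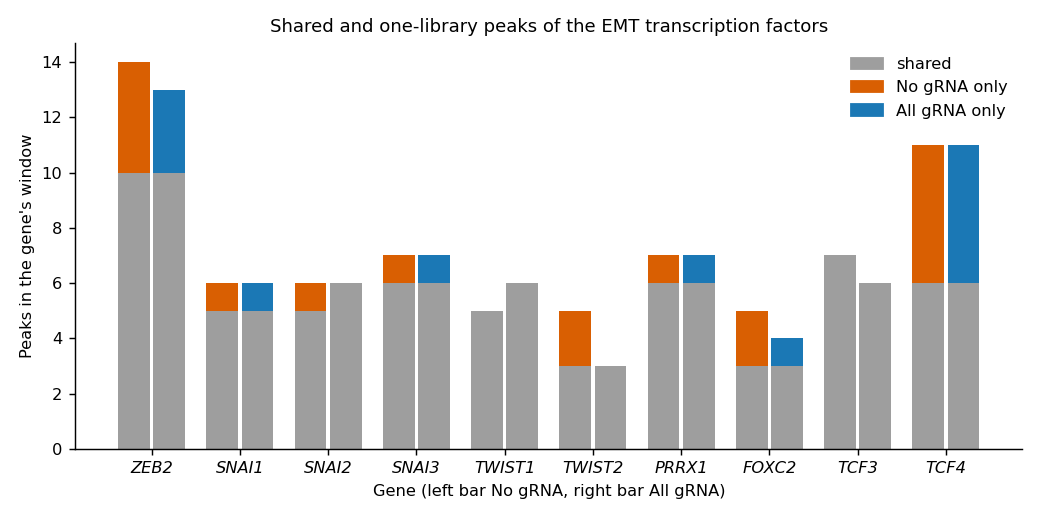
Number of peaks (vertical axis) in the window of each gene (horizontal axis), with the left bar for the No gRNA library and the right bar for the All gRNA library. Grey marks shared peaks and colour marks peaks called in that library alone. ZEB2 and TCF4 held 7 and 10 of the 29 one-library peaks, and TWIST1 and TCF3 held none.

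Of the 29 one-library peaks, 6 had a −log10 q of at least 10. The median −log10 q of the 17 No gRNA only peaks was 6.37 and that of the 12 All gRNA only peaks was 5.36, against 13.9 and 10.1 over all member peaks of the same lists. With a −log10 q of at least 10 there were 4 one-library peaks among 42 in No gRNA (9.52%, whole list 9.24%) and 2 among 36 in All gRNA (5.56%, whole list 5.14%). Between 5 and 10 they were 6 of 23 (26.1%, whole list 49.3%) and 4 of 15 (26.7%, whole list 33.6%). Under 5 they were 7 of 8 (87.5%, whole list 64.1%) and 6 of 18 (33.3%, whole list 57.7%). Peaks within 1 kb of a protein-coding start were one-library in 5 of 35 cases in No gRNA and in 0 of 31 in All gRNA, where the whole lists had 13.2% and 8.08%. Farther from starts, 12 of 38 were one-library in each list (31.6%, whole lists 28.5% in No gRNA and 28.8% in All gRNA). Scaled to the other depth, the pileups of all 17 and all 12 lay above the lowest pileup that would be called there. Some did so by little, such as 8.17 against 8 at 0.658 kb of TWIST2, and others by more, such as 22.3 against 8 at 2.39 kb of ZEB2. That limit leaves out counting error. Whether the lower depth of All gRNA accounts for missing calls was not tested.

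Between the libraries, 52 peaks of these genes could be paired one to one. Of the 52 ratios, 31 were below 1 (59.6%, against 58.1% of all 48041 pairs), and their median log2 was -0.18 against -0.11 over all pairs. A total of 2 pairs were higher in All gRNA, where the same rule called 2.44% of all pairs, and 1 was lower, where it called 3.27%. When pairs were scaled by the median ratio of all pairs (0.928) instead of by depth, the members kept 2 and 1, while over all pairs the calls turned from 1173 higher and 1572 lower to 1581 higher and 983 lower. Both higher peaks lay upstream of PRRX1, and the lower peak lay in the SNAI3 window at the start of the neighbouring gene RNF166. Shared peaks were narrower in All gRNA in 35 pairs, wider in 16 and of equal width in 1, with a median width difference of -19.5 bp, where all pairs had -23 bp.

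**Figure D2:**
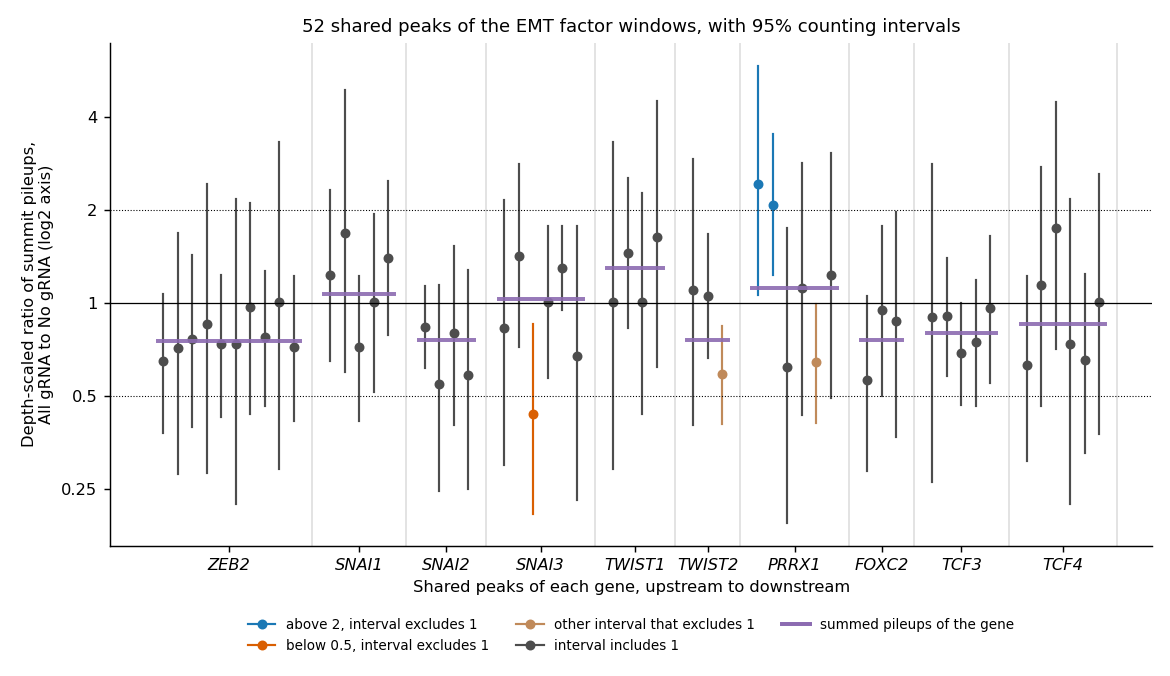
Depth-scaled ratio of summit pileups, All gRNA to No gRNA (vertical log2 axis), for the 52 paired peaks grouped by gene and ordered from upstream to downstream, with 95% counting intervals as lines and dotted lines at ratios of 0.5 and 2. The purple bars mark the ratio of the pileups summed over a gene's pairs, from 0.752 in ZEB2 to 1.30 in TWIST1.

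The counts by family are given without a test of the differences, and the intervals of all but 5 of the 52 ratios included 1. The zinc finger genes ZEB2, SNAI1, SNAI2 and SNAI3 had 25 pairs, 17 of them below 1, with a median log2 ratio of -0.33, and 13 of the 17 were pairs of ZEB2 or SNAI2. Without ZEB2, the 42 pairs of the other 9 genes of the whole list had 22 below 1 and a median of -0.07. TWIST1 and TWIST2 had 7 pairs with 1 below 1 and a median of 0.07. TCF3 and TCF4 had 11 pairs with 8 below 1 and a median of -0.16, and PRRX1 and FOXC2 had 9 pairs with 5 below 1 and a median of -0.08. The families also differed in height, with median No gRNA pileups of 24, 13.5, 13.5 and 15 in the order given. Over all pairs the median log2 ratio went from 0.07 in the weakest of 5 height classes to -0.23 in the tallest. Whether height accounts for the family values was not tested.

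When pileups were summed over the one-to-one pairs of each gene, which leaves out the split main start peaks of SNAI2, TWIST1 and TCF3, the interval of the ratio lay below 1 for ZEB2, SNAI2, TWIST2 and TCF3, that is for 4 of the 10 genes, and above 1 for 0. Among 12966 protein-coding genes with at least 3 pairs, 32.4% lay below 1 and 1.57% above, and the median ratio was 0.874, so the members' count was near that of genes at large. With scaling by the median ratio, only ZEB2 kept an interval below 1 (0.811, 0.662 to 0.990), where 16.1% of the genes lay below 1 and 4.03% above. The summed pileups were 279 and 156 for ZEB2 (ratio 0.752, 0.615 to 0.919), 193 and 109 for SNAI2 (0.760, 0.595 to 0.966), 160 and 90 for TWIST2 (0.757, 0.578 to 0.986) and 239 and 142 for TCF3 (0.800, 0.645 to 0.988). The TCF3 sum held no peak at a TCF3 start and 4 of its 5 pairs lay at the starts of MEX3D, MBD3 and UQCR11. With the main start peak added it was 342 and 221 (0.870, 0.731 to 1.03), so its interval then included 1. The TWIST2 sum rested on its intron peak, without which it was 57 and 45 (1.06, 0.702 to 1.60). The highest ratio was that of TWIST1 with 60 and 58 (1.30, 0.891 to 1.90), followed by PRRX1 with 140 and 117 (1.12, 0.872 to 1.45). Without its strongest pair, the 44.1 kb one with 67 and 32, PRRX1 had 73 and 85 (1.57, 1.13 to 2.17). That interval lay above 1, but the remaining pairs include both peaks counted as higher, so it is no separate result. The share of genes at large under the same leave-out is not given here.

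At the main starts, the heights spanned a wide range within each library. TCF3 had the highest peak, with 103 (No gRNA) and 79 (All gRNA), followed by SNAI2 with 60 and 39 and TWIST2 with 46 and 36. PRRX1 and TCF4 had the lowest, with 13 and 6 for PRRX1 and 13 and 11 for TCF4. After scaling for depth, the intervals of all 10 main start ratios included 1, with the lowest ratios at PRRX1 (0.621), SNAI1 (0.720) and ZEB2 (0.763) and the highest at TCF4 (1.14).

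**Figure D3:**
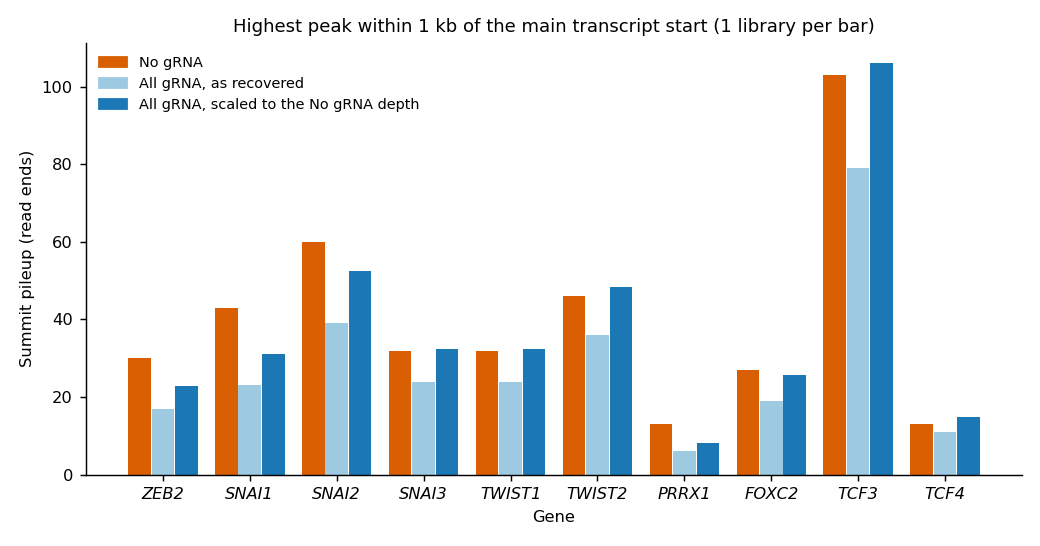
Summit pileup in read ends (vertical axis, from 0) of the highest peak within 1 kb of the main transcript start of each gene (horizontal axis), in No gRNA, in All gRNA as recovered, and in All gRNA scaled to the No gRNA depth. Each bar is 1 library, so there are no error bars, and the order from TCF3 at 103 and 79 down to PRRX1 at 13 and 6 can be read off directly.

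**Figure D4:**
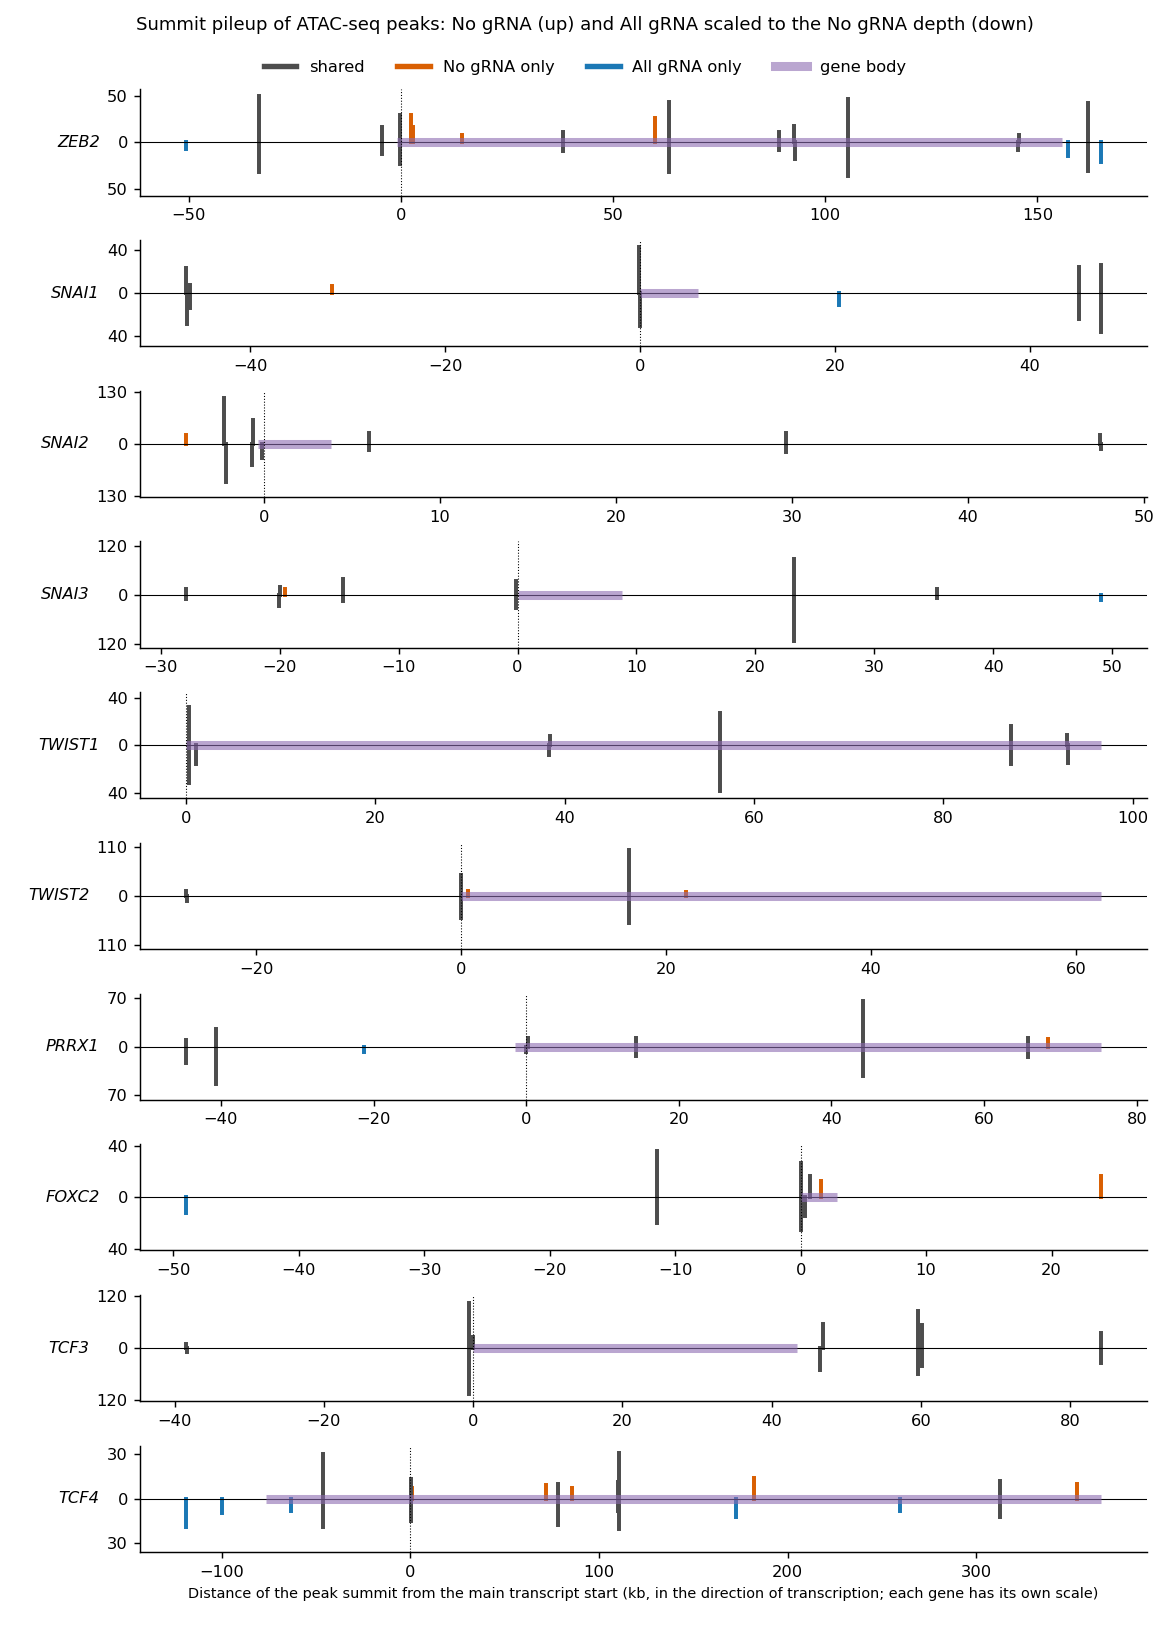
Summit pileup of every peak in the window of each gene against the distance of its summit from the main transcript start in kb, with No gRNA drawn upwards and All gRNA, scaled to the No gRNA depth, drawn downwards. Grey lines are shared peaks, coloured lines are peaks of 1 library, and the purple bar is the gene body. Grey lines point both up and down at all 10 main starts, and in the ZEB2 body 4 orange lines have no partner.

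ZEB2 encodes the closest relative of ZEB1. Its gene spans chr2:144364364-144521057 on the minus strand, and its window held 14 peaks in No gRNA and 13 in All gRNA, 10 of them shared. The main start peak (chr2:144520140-144520488) had pileups of 30 and 17 in No gRNA and All gRNA (ratio 0.763, 0.395 to 1.43). Of the 10 pairs, 9 had a ratio below 1, within a range of 0.646 to 1.01, and each interval included 1. The peak with the highest −log10 q in both lists was an intronic one at 105 kb (chr2:144414456-144414982), with pileups of 47 and 27 and a −log10 q of 51.1 and 27.2. Other tall peaks lay at -33.5 kb, inside the long non-coding gene LINC01412, with pileups of 50 and 24 (ratio 0.646, 0.380 to 1.07), in an intron at 63.2 kb with 44 and 24, and at 162 kb with 43 and 23. The covered length was 5116 bp in No gRNA and 3683 bp in All gRNA, where the whole lists also fell, from 27.7 Mb to 25.6 Mb.

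The ZEB2 one-library peaks included the strongest of all 10 genes. A pair of adjacent No gRNA peaks lay 2.39 kb and 2.93 kb inside the gene, at an internal start of ZEB2 and a start of its antisense long non-coding gene ZEB2-AS1. The first (chr2:144517618-144517882) had a pileup of 30 and a −log10 q of 18.9. The second (chr2:144517108-144517561) had a pileup of 17 and a −log10 q of 6.68. An intronic No gRNA peak at 59.8 kb (chr2:144460083-144460445) had a pileup of 26 and a −log10 q of 18.7, and a weaker one at 14.4 kb had a pileup of 8. In All gRNA alone, a peak at 165 kb, beyond the 3′ end of the gene (chr2:144355037-144355360), had a pileup of 16 and a −log10 q of 10.0. The other two, at 157 kb and -50.6 kb, had pileups of 11 and 5.

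The bases around the summits of the 59.8 kb and 165 kb peaks are shown because these regions were each called in 1 library with the highest −log10 q of that kind in ZEB2 outside exons. They come from chr2:144460182-144460382 and chr2:144355044-144355244, plus strand of hg38. Neither holds the E-box CAGGTG, its relative CAGCTG, or a TGANTCA sequence on either strand, so no letters are in capitals.
ZEB2 59.8 kb, No gRNA only: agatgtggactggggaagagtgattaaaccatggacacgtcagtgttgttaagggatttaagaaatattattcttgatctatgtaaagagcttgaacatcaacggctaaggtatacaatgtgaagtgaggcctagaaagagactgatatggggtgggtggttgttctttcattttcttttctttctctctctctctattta
ZEB2 165 kb, All gRNA only: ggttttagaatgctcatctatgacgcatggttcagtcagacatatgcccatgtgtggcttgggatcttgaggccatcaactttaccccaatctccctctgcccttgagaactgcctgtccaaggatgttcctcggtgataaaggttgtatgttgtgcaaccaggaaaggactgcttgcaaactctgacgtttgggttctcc

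SNAI1 encodes Snail, a zinc finger repressor of CDH1. It had 6 peaks in each library, 5 of them shared. The main start peak was the strongest in both lists, with a pileup of 43 and a −log10 q of 40.1 in No gRNA and of 23 and 20.3 in All gRNA (ratio 0.720, 0.414 to 1.22). Its width was 602 bp in No gRNA and 479 bp in All gRNA. The other four ratios were above 1, from 1.01 at 45.1 kb to 1.68 at -46.1 kb, the latter beside the start of RNF114, and each interval included 1. A peak at -31.6 kb inside RNF114 was called in No gRNA only, with a pileup of 7, and a peak at 20.4 kb in All gRNA only, with a pileup of 8.

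The 250 bases before each main start were searched for E-boxes, the elements bound by the SNAI and ZEB proteins. CAGGTG, counted on both strands, occurs there in 17.4% of the 19970 genes and in 2 members, SNAI1 and SNAI3. CAGCTG, a related E-box, occurs in 13.2% of genes and in 2 members, SNAI2 and FOXC2. TGANTCA, a sequence class that includes sites of the AP-1 factors, occurs in 4.73% of genes and in 0 members.

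SNAI3 is the third SNAI gene, on chromosome 16 among several other genes. Its main start peak (chr16:88686469-88686775) had pileups of 32 and 24 (ratio 1.01, 0.569 to 1.77) and widths of 307 bp in No gRNA and 495 bp in All gRNA. The strongest peak of both lists lay at 23.2 kb, at the starts of SNAI3-AS1, a long non-coding gene, and MVD, an enzyme of the mevalonate pathway (chr16:88663046-88663509). It had pileups of 87 and 84 (ratio 1.30, 0.951 to 1.77, or 1.40, 1.02 to 1.91, when scaled by the median ratio). The peak at the start of RNF166, a ubiquitin ligase gene, lay at -14.7 kb (chr16:88701038-88701388) and was the lower call, with pileups of 37 and 12 (ratio 0.436, 0.207 to 0.856) and a −log10 q of 35.4 against 11.1. A second peak near the RNF166 start, at -20.0 kb and shared with CTU2, had pileups of 19 and 20 (ratio 1.42, 0.718 to 2.81). Just beside it, at -19.6 kb, lay a No gRNA only peak with a pileup of 14. An All gRNA only peak at 49.1 kb had a pileup of 9.

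SNAI2 encodes Slug, a zinc finger repressor, on the minus strand of chromosome 8. At its main start 1 peak of No gRNA (chr8:48921489-48922199, 711 bp, pileup 60) overlapped 2 of All gRNA, with pileups of 27 and 39 and widths of 227 and 419 bp. Between the highest summits, 55 bp apart, the ratio was 0.875 (0.569 to 1.33). The strongest peak of both lists lay at -2.25 kb (chr8:48923450-48923857), with pileups of 116 and 72 (ratio 0.835, 0.614 to 1.13) and a −log10 q of 87.9 and 52.5. The 4 paired peaks had ratios of 0.548 to 0.835, all below 1 with intervals that included 1. A peak at -4.41 kb was called in No gRNA only, with a pileup of 23 on a high local background and a −log10 q of 3.84, and there was no All gRNA only peak.

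TWIST1, a basic helix-loop-helix factor of mesoderm and neural crest, had the highest summed ratio of the 10 genes. At its main start 1 No gRNA peak of 1029 bp (chr7:19116715-19117743), the widest of all No gRNA peaks in these windows, overlapped 2 All gRNA peaks of 316 and 475 bp. The highest summits lay 22 bp apart and had pileups of 32 and 24 (ratio 1.01, 0.569 to 1.77). The strongest peak of both lists lay at 56.4 kb (chr7:19060945-19061627), inside the body of the longest TWIST1 transcript, with pileups of 27 and 29 (ratio 1.45, 0.826 to 2.54). The 4 paired ratios ran from 1.01 to 1.64, none below 1, and each interval included 1. TWIST1 had 5 peaks in No gRNA and 6 in All gRNA, none of them without a counterpart.

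TWIST2, the close relative of TWIST1, had 5 peaks in No gRNA and 3 in All gRNA. The main start peak (chr2:238847853-238848534) had pileups of 46 and 36 (ratio 1.05, 0.661 to 1.67) and nearly the same width, 682 and 670 bp. The strongest peak of both lists was intronic, at 16.4 kb (chr2:238864243-238864702), with pileups of 103 and 45 (ratio 0.588, 0.405 to 0.842). Its interval excluded 1, but the ratio did not reach 0.5. Its −log10 q was 98.4 in No gRNA and 39.9 in All gRNA, and its width 460 and 371 bp. The 2 No gRNA only peaks, at 0.658 and 21.9 kb, had pileups of 11 and 9 and a −log10 q of 2.72 and 3.35.

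The summit of the TWIST2 intron peak is shown because its ratio had the interval farthest below 1 of the peaks that belong to a member's own body (chr2:238864403-238864603, plus strand of hg38). The capitals mark a TGANTCA match, and there is no CAGGTG or CAGCTG.
TWIST2 16.4 kb: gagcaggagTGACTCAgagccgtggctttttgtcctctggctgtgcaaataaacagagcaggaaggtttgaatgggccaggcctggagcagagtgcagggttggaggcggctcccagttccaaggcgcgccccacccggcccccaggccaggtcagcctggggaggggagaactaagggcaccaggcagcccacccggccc

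PRRX1 encodes a homeobox factor of limb and craniofacial mesenchyme and had 7 peaks in each library, 6 of them shared. The main start peak (chr1:170664290-170664802) was weak, with pileups of 13 and 6 (ratio 0.621, 0.194 to 1.75), and its summit lay at 0.251 kb in No gRNA and 0.037 kb in All gRNA. Both peaks that were higher in All gRNA lay upstream, inside the non-coding gene ENSG00000235303. At -44.5 kb (chr1:170619486-170619702) the pileups were 10 and 18 (ratio 2.42, 1.06 to 5.87) and the −log10 q 5.25 and 10.4. At -40.7 kb (chr1:170623279-170623624) the pileups were 26 and 40 (ratio 2.07, 1.23 to 3.53) and the −log10 q 24.8 and 36.9, which made it the strongest PRRX1 peak of All gRNA. In both cases the All gRNA pileup was higher even before scaling. The local background was also higher in All gRNA, at 1.80 against 1.12 for the -44.5 kb peak and 1.76 against 1.08 for the -40.7 kb peak. The fold over local background was 5.19 in No gRNA and 6.79 in All gRNA at -44.5 kb, and 13.0 and 14.9 at -40.7 kb. The strongest PRRX1 peak of No gRNA was intronic, at 44.1 kb (chr1:170708087-170708670), with pileups of 67 and 32 (ratio 0.643, 0.408 to 0.993). Scaled by the median ratio its interval included 1 (0.693, 0.440 to 1.07), while both upstream peaks stayed above 1. The remaining pairs, at 14.3 and 65.7 kb, had ratios of 1.12 and 1.23. A No gRNA only peak at 68.4 kb had a pileup of 11, and an All gRNA only peak at -21.3 kb a pileup of 6.

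The summits of the higher peaks and of the 44.1 kb peak are shown because under depth scaling they differed in opposite directions within 1 gene. The coordinates are chr1:170619490-170619690, chr1:170623329-170623529 and chr1:170708162-170708362, plus strand of hg38. All hold at least 1 TGANTCA match, in capitals, and none holds CAGGTG or CAGCTG.
PRRX1 -44.5 kb, higher in All gRNA: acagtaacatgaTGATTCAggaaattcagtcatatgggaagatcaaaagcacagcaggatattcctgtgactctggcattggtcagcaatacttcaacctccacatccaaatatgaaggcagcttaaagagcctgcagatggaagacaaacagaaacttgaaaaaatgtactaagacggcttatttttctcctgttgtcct
PRRX1 -40.7 kb, higher in All gRNA: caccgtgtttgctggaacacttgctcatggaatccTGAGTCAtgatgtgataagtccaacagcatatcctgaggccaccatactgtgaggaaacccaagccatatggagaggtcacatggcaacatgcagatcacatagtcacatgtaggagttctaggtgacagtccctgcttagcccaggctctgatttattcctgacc
PRRX1 44.1 kb, interval below 1: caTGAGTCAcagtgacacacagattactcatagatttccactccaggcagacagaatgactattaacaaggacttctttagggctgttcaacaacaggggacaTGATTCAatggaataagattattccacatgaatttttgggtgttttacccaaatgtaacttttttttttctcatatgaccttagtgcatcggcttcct

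FOXC2 encodes a forkhead factor of mesenchymal and lymphatic development and had 5 peaks in No gRNA and 4 in All gRNA. The main start peak (chr16:86566702-86566984) had pileups of 27 and 19 (ratio 0.947, 0.498 to 1.77). A second peak within 1 kb, near the start of the antisense gene FOXC2-AS1, had 17 and 11 (ratio 0.871, 0.369 to 1.97), at summits 401 bp apart. The strongest peak of both lists lay at -11.5 kb, at the starts of MTHFSD and FLJ30679 (chr16:86555166-86555719), with pileups of 36 and 15 (ratio 0.561, 0.285 to 1.05) and widths of 554 and 692 bp, so it was lower and wider in All gRNA. A No gRNA only peak between genes, at 23.9 kb (chr16:86590558-86591103), had a pileup of 17 and a −log10 q of 15.6. The other No gRNA only peak, in the exon of FOXC2, had a pileup of 13, and an All gRNA only peak at -49.0 kb had a pileup of 9.

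TCF3, which encodes the E proteins E12 and E47, had the highest main start signal. In No gRNA 2 peaks lay there, of 231 and 552 bp, with pileups of 26 and 103, and in All gRNA they formed 1 peak of 853 bp (chr19:1652597-1653449) with a pileup of 79. The highest summits lay 1 bp apart and gave a ratio of 1.03 (0.760 to 1.40). Most of the remaining peaks lay at starts of neighbouring genes. At the start of MBD3, a subunit of a chromatin remodelling complex, 2 peaks at 59.6 and 60.1 kb had pileups of 86 and 44 (ratio 0.688, 0.468 to 1.00) and of 54 and 30 (ratio 0.748, 0.462 to 1.19). The peak at UQCR11, a respiratory chain gene, at 46.9 kb, had widths of 938 and 733 bp and pileups of 55 and 37 at summits 403 bp apart (ratio 0.905, 0.580 to 1.40). All 5 paired ratios were below 1, between 0.688 and 0.961, and there was no one-library peak.

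TCF4 encodes the E protein E2-2 and is the longest of the 10 genes, with 90 transcript starts in GENCODE and a window of 536 kb. It had 11 peaks in each library, 6 shared and 5 in each library alone. The main start peak (chr18:55588001-55588293) had pileups of 13 and 11 (ratio 1.14, 0.462 to 2.75). The strongest No gRNA peak lay at -46.6 kb, at another start of TCF4 (chr18:55634586-55634979), with a −log10 q of 30.4 and pileups of 30 and 14 (ratio 0.628, 0.308 to 1.22). The strongest All gRNA peak was a one-library call at -119 kb, inside the non-coding gene ENSG00000267284, with a pileup of 14 and a −log10 q of 14.3. In No gRNA alone, an intronic peak at 182 kb (chr18:55405846-55406204) had a pileup of 14 and a −log10 q of 12.6. The remaining 4 No gRNA only peaks had pileups of 7 to 10 and the remaining 4 All gRNA only peaks pileups of 6 to 9. Among the 6 pairs, 3 ratios were below 1, and each interval included 1.

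The summit of the 182 kb peak is shown because it was the strongest TCF4 call made in No gRNA alone (chr18:55405936-55406136, plus strand of hg38). The capitals mark a TGANTCA match.
TCF4 182 kb, No gRNA only: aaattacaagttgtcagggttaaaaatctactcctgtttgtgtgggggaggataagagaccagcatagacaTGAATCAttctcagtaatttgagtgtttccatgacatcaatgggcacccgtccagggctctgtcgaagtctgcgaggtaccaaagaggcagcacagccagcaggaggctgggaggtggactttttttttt

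Across all member peaks, the motifs within 100 bp of the summit were counted on both strands. CAGGTG occurred in 10 of 73 No gRNA peaks (13.7%, whole list 11.6%) and in 13 of 69 All gRNA peaks (18.8%, whole list 13.1%). Within 1 kb of a protein-coding start it was in 7 of 35 and 7 of 31 peaks (whole lists 12.2% and 13.1%). Farther from starts it was in 3 of 38 and 6 of 38 (whole lists 11.5% and 13.0%). Peaks with the E-box included the main start peaks of SNAI1 in No gRNA and of SNAI3 in both lists and the -2.25 kb peak of SNAI2. Of the 12 All gRNA only peaks, 3 held it, at SNAI1, PRRX1 and TCF4, and of the 17 No gRNA only peaks 0 did, while the whole lists had 16.4% and 11.7% among one-library peaks. CAGCTG occurred in 8 of 73 and 8 of 69 peaks, against 12.4% and 12.0% in the whole lists. TGANTCA occurred in 19 of 73 and 17 of 69 peaks (26.0% and 24.6%, whole lists 30.3% and 31.2%). Its share depends on position, so these pooled shares mix peaks near and far from starts. Within 1 kb of a protein-coding start it was in 5 of 35 and 4 of 31 peaks (whole lists 9.04% and 9.11%). Farther from starts it was in 14 of 38 and 13 of 38 (whole lists 37.4% and 38.3%). A match is a match of letters, and binding was not measured.

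Other factors linked to EMT were taken from a list fixed with earlier results of these data known, namely FOXC1, FOXQ1, GSC, SOX4, SOX9, HMGA2, KLF8, PRRX2 and TBXT. Their windows held 51 peaks in No gRNA and 38 in All gRNA. Of these, 19 (37.3%, whole list 24.7%) and 7 (18.4%, whole list 23.8%) were one-library peaks. A main start peak was called in both libraries for 5 of the 9 and in neither for 4 (FOXQ1, GSC, PRRX2 and TBXT), where all 10 members had one in both. The partner TCF12 and the inhibitors ID1, ID2, ID3 and ID4, which bind E proteins and keep them from DNA, had 37 peaks in each library. One-library peaks numbered 6 and 4 (16.2% and 10.8%, whole lists 24.7% and 23.8%). Of their 29 pairs, 22 had a ratio below 1 (75.9%, against 58.1% of all pairs), with a median log2 ratio of -0.46. Their median No gRNA pileup was 39. Over all pairs, 76.8% were below 1 in the tallest of 5 nearly equal classes of height and 64.3% in the class below it. The median log2 ratios of these classes were -0.23 and -0.17. Height here is the sum of a pair's No gRNA pileup and depth-scaled All gRNA pileup, with 105 as the border between these classes. The classes of the 29 pairs are not given here. Whether height accounts for the ratios of these 29 pairs was not tested. The difference between these lists and the members was not tested. The ZEB1 window itself held 4 peaks in No gRNA and 2 in All gRNA, 3 and 1 of them without a counterpart. These are few peaks to set beside the whole-list shares of 24.7% and 23.8%.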

How the data were processed

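ATAC-seq peak lists of 2 SUM159 libraries (No gRNA and All gRNA, 1 each) were analysed. The authors used fastp for trimming and Bowtie2 for mapping to hg38, discarded mitochondrial, excluded-region and duplicate reads, and ran MACS2 on each library alone, with no control library. Tool versions are not given in the sources used here. The deposited columns hold a fold enrichment over local background (a ratio), a −log10 p, a −log10 q and a score, as the authors' caller wrote them. The score was not used. No total read count is given, so the whole-number summit pileup and the local background were solved from the deposited fold and −log10 p, which succeeded for 100% of peaks in both lists, and depth was taken from the lowest background (0.652 in No gRNA and 0.484 in All gRNA). The procedure was tested on simulated data. Ratios carry exact conditional binomial (Clopper-Pearson) 95% intervals for counting error only. These treat read ends as independent, which they are not, so the intervals can be too narrow even for that error. Only chromosomes 1 to 22 and X were used. Shared peaks overlapped by at least 1 bp, and pairs had exactly 1 partner in each list. Where a peak was split in 1 library, the highest summits were compared. Genes came from GENCODE release 44 on hg38, and the main start is that of the Ensembl canonical transcript. Sequences were read from hg38.

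Peaks were named if they lay within 1000 bp of a main start, had the highest −log10 q of the gene in a list, were one-library with a −log10 q of at least 10, were shared beyond 2-fold with an interval excluding 1, or were among the 3 widest of a list. Other peaks named were chosen after their values were seen, as was the summing of pileups by gene. The members, lists and rules were chosen with earlier results of these data known. Alternatives were other overlaps, thresholds, windows and scalings. Computation used Python 3.11.15 with numpy 2.4.6, pandas 2.3.3 and scipy 1.17.1. One gene of the list of other factors and some sequences are not reported here.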

Additional observations from a re-analysis of the deposited data

How the results depend on the processing

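Of 41 values under alternatives, 22 stayed within 1.5 times the main count or close to the main median and 19 moved. Asking for a −log10 q of 5 in the list being counted, No gRNA only peaks went from 17 to 10 (of 65) and All gRNA only peaks from 12 to 6 (of 51). Asking for 10 they went to 4 (of 42) and 2 (of 36). The whole-list shares also fell at a threshold of 10, from 24.7% to 9.24% in No gRNA and from 23.8% to 5.14% in All gRNA. Those at a threshold of 5 are not given here. With at least 5 in both lists there were 7 All gRNA only peaks. No gRNA only peaks numbered 23 and All gRNA only peaks 19 when an overlap of 50% of both peaks was needed. Whole-list shares under these last 2 settings are not given here, so the counts cannot be set against them. At a −log10 q of at least 10, the member peaks were 42 in No gRNA and 36 in All gRNA. With 20 kb around starts, All gRNA had 43 peaks, 4 of them alone, and 0 higher pairs, as both PRRX1 peaks lay farther out. With 100 kb there were 26 No gRNA only peaks among 104 and 17 All gRNA only peaks among 96. There were also 2 higher and 5 lower pairs. The number of pairs in these wider windows is not given here, so the 5 cannot be read as a larger share. The median log2 ratio of -0.18 became -0.07 when scaled by the median ratio of all pairs (0.928), -0.21 with 20 kb, -0.15 with 100 kb and -0.15 with 50% overlap. The number of genes with a summed ratio interval below 1, from sums and alternatives chosen after seeing the data, was 4, and it was 3 with the split main start peaks, 2 without the strongest pair of each gene and 1 when scaled by the median ratio. No paired analysis was possible because there was 1 library in each group.

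With 1 library per group, the spread between cultures is unknown, and depth limits the weak peaks: pairs with pileups of about 10 had intervals several-fold wide. The lower depth of All gRNA and the guides cannot be told apart as sources of a missing weak peak. Peaks of neighbouring genes lie in several windows, and a window assigns a peak by position alone. A peak listed in 1 library can be below the threshold in the other.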
